A study of Mus musculus with 2 samples.

Results

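The genes described here encode inhibitors of extracellular and intracellular proteases: the serpins, the Kazal inhibitors (Spink genes), the Kunitz inhibitors (Spint genes), the tissue inhibitors of metalloproteinases (Timp genes) and Slpi. They were taken by a rule on gene symbols that uses no expression value, although the families were picked with earlier results of these data known. By this rule 70 genes had a transcript cluster of their own among the 19938 genes that the array measured with at least 1 such cluster. They comprised 24 clade B serpins, 15 clade A serpins, 9 serpins of other clades, 12 Spink genes, 5 Spint genes, 4 Timp genes and Slpi. BV2 is an immortalized mouse microglial cell line, used here without genetic change. According to the methods, all cells were plated in DMEM/F12 with serum, and the medium was exchanged on the next day for DMEM, the standard medium, or for fresh DMEM/F12, a medium richer in nutrients. The RNA of 1 culture per medium, taken 1 d later, was hybridized to 1 Affymetrix Mouse Gene 1.0 ST array. The DMEM array therefore shows cells that had been moved out of DMEM/F12. The comparison asks which genes differ in the medium in which the study examined cell elongation. With 1 array per medium, no test could be made, and the medium cannot be told apart from other differences between these 2 cultures and arrays.

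Serpins present a flexible loop that the target protease cuts, after which the protease stays covalently trapped on the deformed serpin. Most clade A serpins are secreted plasma proteins made by the liver, whereas clade B serpins mostly act inside cells, where they inactivate proteases that leak from granules or lysosomes. Kazal, Kunitz and WAP domain inhibitors such as Slpi block the active site without being consumed, and the Timp proteins occupy the catalytic zinc of matrix metalloproteinases. Microglia and other macrophages secrete proteases that remodel the matrix and digest debris, and these inhibitors set the limits of that activity.

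Each array gave 1 log2 expression value per transcript cluster, a group of probes that measures a gene, and each of the 70 genes rested on a single cluster. Differences are on the log2 scale, with DMEM subtracted from DMEM/F12, so that positive values are higher in DMEM/F12. Receptor genes of smell, taste and pheromone sensing served as background. The 95th percentile of their 1243 clusters was 4.15 (log2) on the DMEM array and 4.17 on the DMEM/F12 array, and a gene above it on at least 1 array is called above background. Of 13 measured markers of microglia and macrophages, 11 were above background, among them Csf1r (8.79 in DMEM and 8.47 in DMEM/F12) and Itgam (7.79 and 7.80). Aif1 and P2ry12 were not, and Tmem119 was lower in DMEM/F12 by 0.66. Markers of other cell types were above background for 1 of 5 neuronal, 1 of 4 astrocytic, 3 of 3 oligodendrocytic, 2 of 5 neutrophil and 3 of 4 fibroblast genes, and their part in the results was not tested. In such bulk RNA, fewer cells of a type and less RNA per cell cannot be told apart.

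Few of the inhibitors differed between the arrays by the sizes used here. Of the 70 genes, 18 (25.7%) were above background, against 66.3% of all genes, and 52 were not above it on either array. Only Spink5 and Serpinb1a, 2 of the 70 genes (2.86%), reached a 2-fold higher value in DMEM/F12, against 0.0602% of all genes. None was 2-fold lower, against 0.0251% of all genes. At 1.5-fold, 4 genes were higher in DMEM/F12 (5.71%, against 0.928% of all genes), namely these 2, Slpi and Serpinb6b. Serpinb9b alone was 1.5-fold lower (1.43%, against 0.727% of all genes). All 5 of these genes were above background on both arrays. The study also displayed the most upregulated genes of these same arrays. Spink5 and Serpinb1a were near the top of all genes here (ranks 2 and 7). They and other genes of such rank are therefore not independent evidence. The other 65 genes lay within 1.5-fold, and the nearest to that limit was Serpina9, which was not above background at 2.66 in DMEM and 3.23 in DMEM/F12.

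As a whole, the 70 genes were not shifted to one side. Their median difference was 0.00, as it was over all genes, with 34 genes higher, 30 lower and 6 equal in DMEM/F12. Their spread was wider, with an SD of 0.35 across genes against 0.23 for all genes. This lay mainly in the 18 genes above background (SD 0.52, against 0.22 for all genes above background). These include the 5 named above, and the SD without those 5 was not calculated. The wider spread is therefore not a separate result. For the 52 genes not above background the SD was 0.26, against 0.24 for all such genes.

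**Figure D1:**
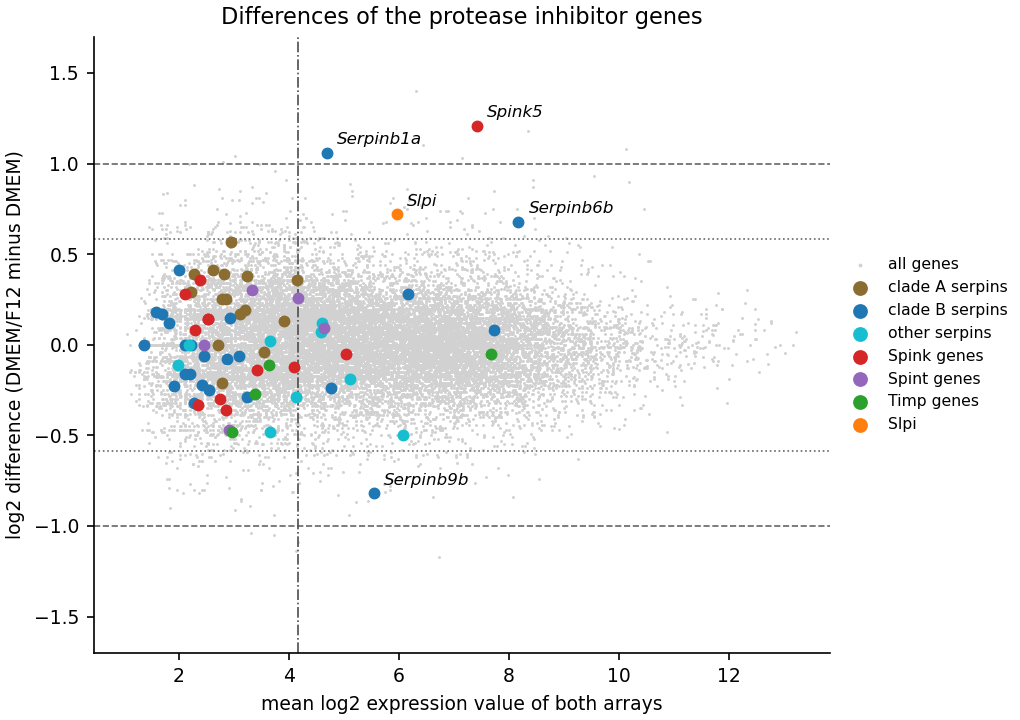
Each coloured point is 1 of the 70 inhibitor genes by class and each grey point 1 of the other genes, with the mean log2 value of both arrays on the horizontal axis and the log2 difference (DMEM/F12 minus DMEM) on the vertical axis. Dashed and dotted horizontal lines mark 2-fold and 1.5-fold, and the vertical line marks background, as the mean of its levels on both arrays. The 5 named genes lie outside the dotted lines and to the right of background.

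Among the Kazal inhibitors, Spink5 stood apart from the rest of its family. Spink5 encodes LEKTI, a secreted inhibitor with many Kazal domains that restrains kallikreins in the epidermis. The DMEM array gave a log2 value of 6.81 and the DMEM/F12 array 8.02 (1.21, 2.31-fold). This was the second highest difference of the 19938 genes. Both values were far above background. The only other Spink gene above background was Spink4, an inhibitor known from goblet cells of the gut, at 5.06 in DMEM and 5.01 in DMEM/F12. The 10 other Spink genes were not above background on either array and lay on both sides of 0, from -0.36 (Spink13) to 0.36 (Spink10). Over all 12 genes, 6 were higher and 6 lower in DMEM/F12.

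The kallikreins Klk5 and Klk7, targets of LEKTI, had lower values in DMEM/F12, each within 1.5-fold. Klk5 was not above background, at 3.29 in DMEM and 2.81 in DMEM/F12, and Klk7 was at 4.70 and 4.59. Over all genes, 0.928% were 1.5-fold higher and 0.727% lower. Among 19 measured kallikreins and transmembrane serine proteases, none was 1.5-fold apart. The widest differences among those above background were those of Klk4 (4.59 in DMEM and 5.02 in DMEM/F12) and Klk14 (3.91 and 4.25, the first of these below background).

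The clade B serpins held both the highest and the lowest serpin differences. Serpinb1a, an intracellular inhibitor of the neutrophil proteases elastase, cathepsin G and proteinase 3, was at 4.16 in DMEM and 5.22 in DMEM/F12. The difference was 1.06 (2.08-fold), rank 7 of all genes. The DMEM value was only 0.01 above background, so the size of the difference rests on a DMEM value at the edge of background. Serpinb6b was at 7.83 in DMEM and 8.51 in DMEM/F12 (0.68, 1.60-fold), rank 84. Serpinb9b, a mouse paralogue of the granzyme B inhibitor Serpinb9, had a log2 value of 5.95 on the DMEM array and 5.13 on the other. Its difference of -0.82 (1.77-fold lower in DMEM/F12) had rank 18 from the lowest of all genes.

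The other clade B serpins above background differed less than these 3 genes. Serpinb6a, an inhibitor of cathepsin G, was at 7.69 in DMEM and 7.77 in DMEM/F12. Serpinb9 was at 4.89 and 4.65, and Serpinb8, an inhibitor of the proprotein convertase furin, was at 6.02 and 6.30. The Serpinb1a paralogues Serpinb1b (2.49 and 2.43) and Serpinb1c (3.39 and 3.10) were not above background. Neither was Serpinb2, a serpin known from activated macrophages (3.12 and 3.06). In all, 9 of the 24 clade B genes were higher in DMEM/F12, 12 lower and 3 equal, with a median of -0.03.

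Genes with opposite differences lay in the same locus. In the order of the RefSeq genes, 13 measured clade B genes lie in the locus that runs from Serpinb1a to Serpinb6a. Among these measured genes, Serpinb6b, Serpinb9 and Serpinb9b follow each other, with differences of 0.68, -0.24 and -0.82. The locus spanned 1.88 on the log2 scale, from -0.82 to 1.06, and 5 of its 13 genes were above background. The other clade B locus, with 11 measured genes from Serpinb5 to Serpinb8, spanned 0.73, and only Serpinb8 was above background there. Probe sequences were not used here, so whether probes of these similar paralogues read each other's transcripts was not tested.

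**Figure D2:**
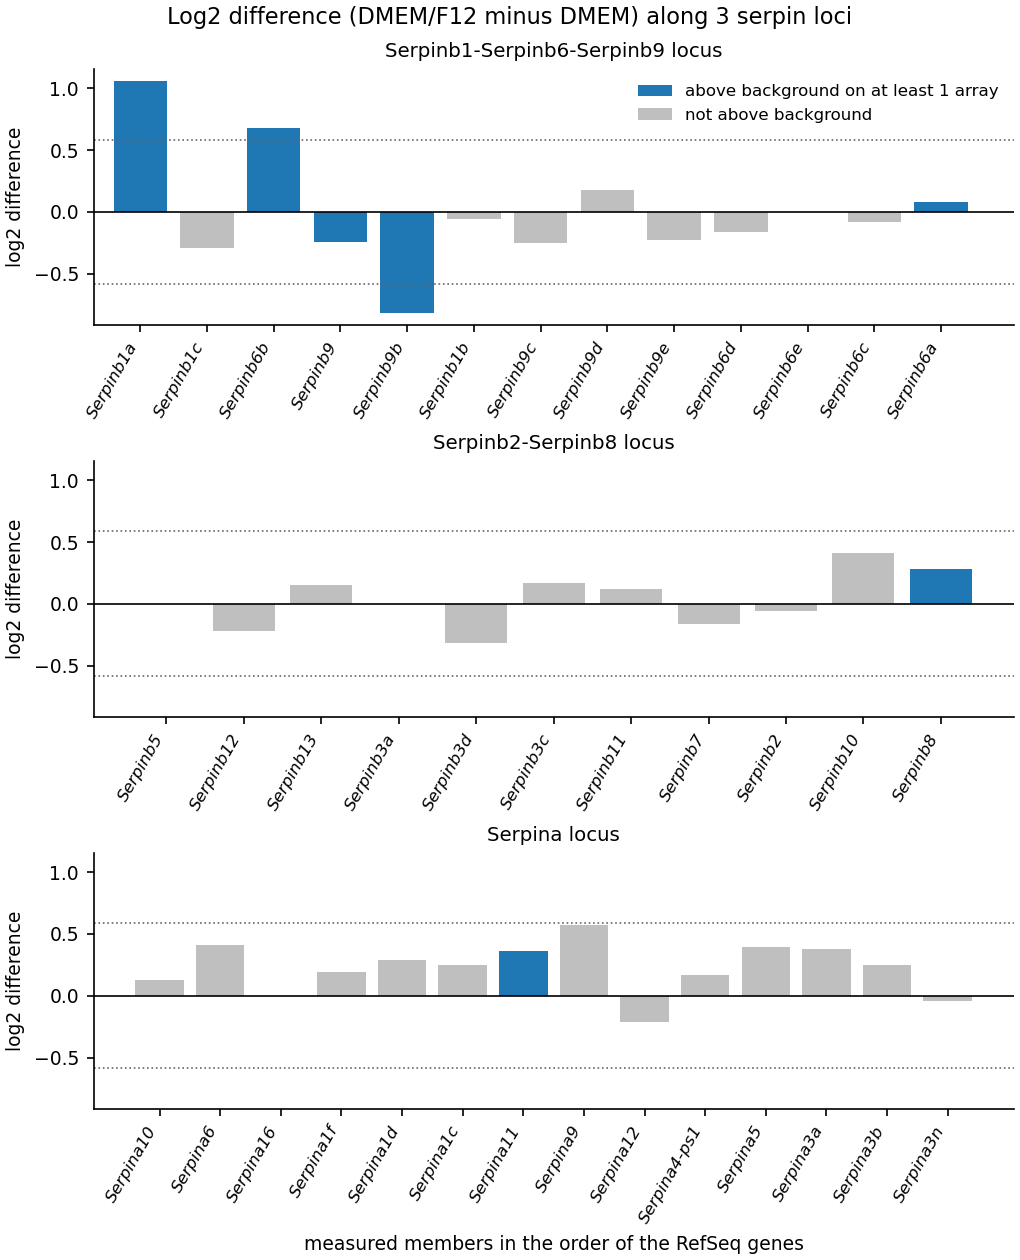
Bars give the log2 difference (DMEM/F12 minus DMEM) of each measured serpin along 3 loci, in the order of the RefSeq genes and not to genomic scale. Blue bars are genes above background on at least 1 array, grey bars are not, dotted lines mark 1.5-fold (0.58), and a gene without a bar has a difference of 0. In the Serpinb1-Serpinb6-Serpinb9 locus, Serpinb1a and Serpinb6b pass the upper line and Serpinb9b passes the lower one.

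Slpi encodes a secreted inhibitor of elastase and cathepsin G that macrophages make on inflammatory stimulation. It was at 5.60 in DMEM and 6.32 in DMEM/F12 (0.72, 1.65-fold), rank 71 of all genes. Both values were above background. Elastase and cathepsin G, which Slpi inhibits, and proteinase 3, a further target of Serpinb1a, were low on both arrays. Elane (neutrophil elastase) was at 4.53 in DMEM and 4.88 in DMEM/F12. Prtn3 (proteinase 3) was at 4.31 and 4.12, the second of these below background. Ctsg (cathepsin G) was not above background at 3.81 and 3.52. Of 13 measured neutrophil and mast cell enzymes, 4 were higher in DMEM/F12 and 9 lower (median -0.12). None was 1.5-fold apart, against 0.928% higher and 0.727% lower over all genes. Of these 13, 9 were not above background, and the median was 0.02 once dim values were set to the background level. Among 5 neutrophil markers, Camp (4.27 and 4.24) was just above background on both arrays, and S100a9 (4.20 and 4.17) only in DMEM.

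The sequences before the starts of Serpinb6b, Slpi and Serpinb9b are shown because these genes, 3 of the 5 that were 1.5-fold apart, differed in opposite directions. No window was found for Spink5 and Serpinb1a. They are the 250 bases before the annotated start (RefSeq, GRCm38.p6), at chr13:32965011-32965260 on the plus strand for Serpinb6b, chr2:164356508-164356757 on the minus strand for Slpi and chr13:33027164-33027413 on the plus strand for Serpinb9b. The start used for Serpinb6b lies inside the outermost span of that gene. Of the 7 motifs searched on both strands, the matches are in capitals. They are the core of PU.1, the lineage factor of macrophages (GAGGAA), the C/EBP motif (TTGCNNAA) and the GC box (GGGCGG).
Serpinb6b: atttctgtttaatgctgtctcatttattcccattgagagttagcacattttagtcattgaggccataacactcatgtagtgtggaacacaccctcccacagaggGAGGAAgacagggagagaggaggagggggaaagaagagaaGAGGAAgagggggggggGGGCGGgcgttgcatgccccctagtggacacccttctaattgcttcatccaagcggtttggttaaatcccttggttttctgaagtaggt
Serpinb9b: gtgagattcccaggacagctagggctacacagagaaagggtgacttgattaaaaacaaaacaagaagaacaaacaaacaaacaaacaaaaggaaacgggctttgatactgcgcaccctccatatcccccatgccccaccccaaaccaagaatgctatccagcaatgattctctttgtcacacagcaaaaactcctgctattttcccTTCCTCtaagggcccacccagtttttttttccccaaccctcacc
Slpi: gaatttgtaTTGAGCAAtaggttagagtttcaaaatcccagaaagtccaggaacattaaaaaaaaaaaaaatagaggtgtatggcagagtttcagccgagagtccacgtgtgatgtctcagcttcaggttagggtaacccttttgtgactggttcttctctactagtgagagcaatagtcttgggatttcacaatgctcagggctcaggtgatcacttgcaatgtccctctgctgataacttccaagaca
Serpinb6b held GAGGAA at 146 and at 106 bases before the start and the GC box at 89. Serpinb9b held GAGGAA on the opposite strand at 44, and Slpi held the C/EBP motif on the opposite strand at 241. None of these matches overlapped another. The other motifs searched were AP-1 (TGANTCA), the NRF2 element (TGACNNNGC), the TATA box (TATAAA) and the NF-kB consensus, whose letters were not in these windows. GAGGAA stood in 23.3% of 32851 windows of all genes and in 21.0% of the 62 windows of the inhibitor genes. The shares were 9.56% and 19.4% for C/EBP and 32.7% and 19.4% for the GC box. For the other motifs they were 6.75% and 17.7% (AP-1), 10.2% and 11.3% (NRF2), 12.4% and 24.2% (TATA) and 3.90% and 1.61% (NF-kB). These matches describe letters and not binding. PU.1 cores stood before both Serpinb6b and Serpinb9b, and whether any motif bears on a difference was not tested.

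Clade A serpins, most of them plasma proteins, were almost all at background. Only Serpina11 of 15 was above background, at 3.97 in DMEM, below background, and 4.33 in DMEM/F12. The class had 12 genes higher in DMEM/F12, 2 lower and 1 equal, with a median of 0.25 and a range of -0.21 to 0.57. Of its 14 genes not above background, 11 (78.6%) were higher, against 44.6% of all genes not above background. With values below background raised to it, the median of the class was 0.02. Serpina3n, a marker of reactive glia in the brain, was not above background at 3.57 in DMEM and 3.53 in DMEM/F12.

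Of the 9 serpins of other clades, 5 were above background and the widest difference was that of Serpinf1. Serpinf1 encodes pigment epithelium-derived factor, a secreted serpin without inhibitory activity that restrains blood vessel growth and protects neurons. The value was 6.33 with DMEM and 5.83 with DMEM/F12 (-0.50, or 1.41-fold lower), just inside the 1.5-fold limit. Serpinf2, the plasmin inhibitor alpha2-antiplasmin, was at 5.20 and 5.01. Serpind1, the thrombin inhibitor heparin cofactor II, was at 4.27 and 3.98, the second of these below background. The collagen chaperone Serpinh1 (4.55 and 4.62) and Serpine3 (4.55 and 4.67) were nearly level. Serping1, the C1 inhibitor of complement, was not above background at 3.90 in DMEM and 3.42 in DMEM/F12, and neither were the thrombin inhibitor Serpinc1 (3.65 and 3.67) and the neuronal serpin Serpini1 (2.05 and 1.94).

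**Figure D3:**
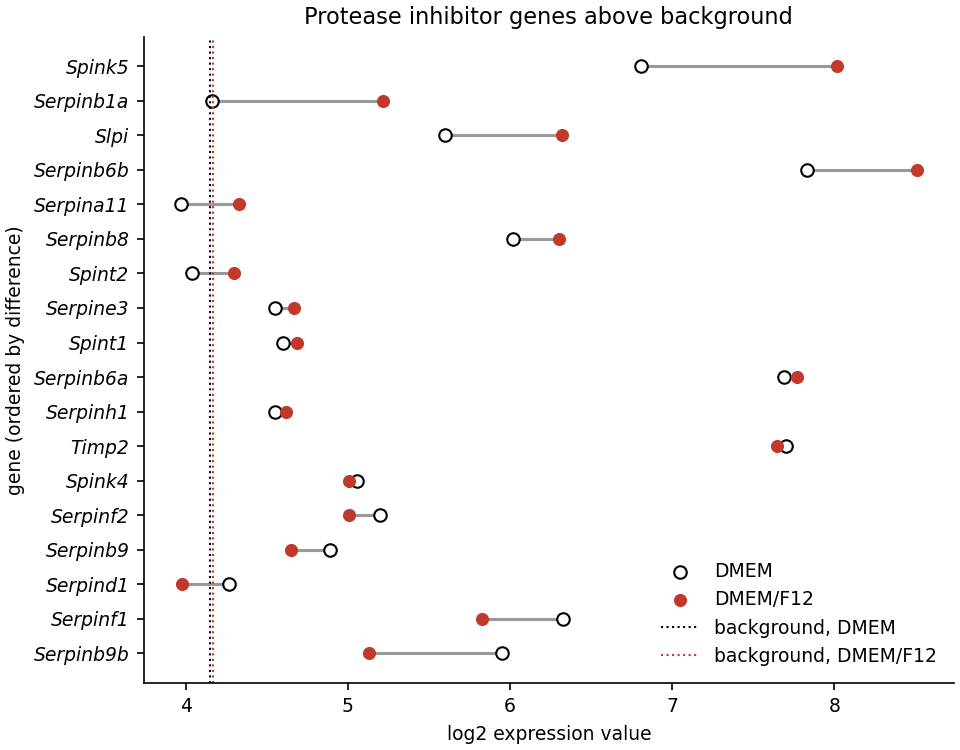
Log2 expression value in DMEM (open circles) and DMEM/F12 (red circles) of the 18 inhibitor genes above background on at least 1 array, ordered by their difference. Dotted lines mark background on the DMEM array (4.15) and the DMEM/F12 array (4.17), and each circle is 1 array. Serpinb1a starts at the background line, whereas Spink5, Slpi, Serpinb6b and Serpinb9b are above it in both media.

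The Kunitz inhibitors Spint1 and Spint2, membrane proteins that restrain matriptase, hepsin and the hepatocyte growth factor activator, were close to background. Spint1 was at 4.60 in DMEM and 4.69 in DMEM/F12, and Spint2 was at 4.04, below background, and 4.30. None of their target proteases was 1.5-fold apart. St14 (matriptase) was at 4.66 and 4.71. Hpn (hepsin) was at 4.11, below background, and 4.33, and Hgfac was at 4.28 and 3.74, the second of these below background. Spint3, Spint4 and Spint5 were not above background, with differences of -0.47, 0.00 and 0.30.

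Timp2 was the only Timp gene above background, and it was level between the media. Timp2, which inhibits matrix metalloproteinases and also takes part in activating pro-MMP2, was at 7.70 in DMEM and 7.65 in DMEM/F12. Timp1 (3.70 and 3.59), Timp3 (3.20 and 2.72) and Timp4 (3.52 and 3.25) were not above background. All 4 had lower values in DMEM/F12, with a median of -0.19, and the only one above background differed by -0.05. Over all genes, 0.928% were 1.5-fold higher and 0.727% lower, and none of 22 measured matrix metalloproteinases was 1.5-fold apart. Mmp2 was at 4.77 and 4.99, Mmp9 at 4.63 and 4.99, and Mmp14, which activates pro-MMP2 on the cell surface, at 4.52 and 4.79. The widest difference among those above background was that of Mmp23 (4.26 and 4.64).

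Some inhibitors of these families could not be read as single genes. RefSeq lists 91 symbols that match the choice. Of these, 5 (Serpina1a, Serpina1b, Serpina1e, Serpinb9f and Serpinb9g) had only clusters shared with relatives, none of them above background. The remaining 16 were not analysed here.

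Other genes of protease control were read from 9 lists. Over all genes, 0.928% were 1.5-fold higher and 0.727% lower, and at these shares lists of such length would hold few such genes or none. Among 17 measured genes of coagulation and fibrinolysis, 12 were higher in DMEM/F12 and 3 lower (median 0.13). Of these 17, 8 were not above background, and the median was 0.02 once dim values were set to the background level. The only gene 1.5-fold apart was Plau, the urokinase plasminogen activator, at 7.99 in DMEM and 8.90 in DMEM/F12 (0.91, 1.88-fold). Its receptor Plaur was at 6.46 and 6.75, and the tissue activator Plat was not above background (3.87 and 3.97).

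Among 31 measured genes of the other list of inhibitors, 16 were higher in DMEM/F12 and 9 lower (median 0.05). Cd109, a membrane protein related to alpha2-macroglobulin, was at 5.78 in DMEM and 6.58 in DMEM/F12 (0.80, 1.74-fold). Cst7, the cystatin F of myeloid cells, was at 9.07 and 9.83 (0.76, 1.69-fold). The common cysteine protease inhibitors were level, with Cst3 at 12.17 and 12.23, Cstb at 10.10 and 10.09 and the calpain inhibitor Cast at 7.28 and 7.33. The 11 genes of the cysteine cathepsin list, among them legumain (Lgmn), had a median of 0.01 and none was 1.5-fold apart. Among those above background, Ctsk (12.13 and 11.81) and Ctss (8.87 and 9.10) had the widest differences.

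Of 15 measured granzymes and caspases, the targets of several clade B serpins, 9 were higher and 5 lower in DMEM/F12 (median 0.08). Gzmb, the target of Serpinb9, was not above background (2.56 in DMEM and 2.65 in DMEM/F12), and the only gene 1.5-fold apart, Gzmc (2.89 and 2.13), was not either. Casp4 (0.29) and Gzmm (0.28) had the widest differences among those above background. The 19 ADAM and ADAMTS proteases had a median of 0.02 and none was 1.5-fold apart. The widest differences among those above background were those of Adamts1 (6.82 and 7.32) and Adam10, the main alpha-secretase (0.22). Among 7 measured receptors of the serpin uptake list (median 0.09), Lrp1, which clears protease-serpin complexes, was at 9.20 and 9.45 and Lrp8 at 7.97 and 8.27.

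**Figure D4:**
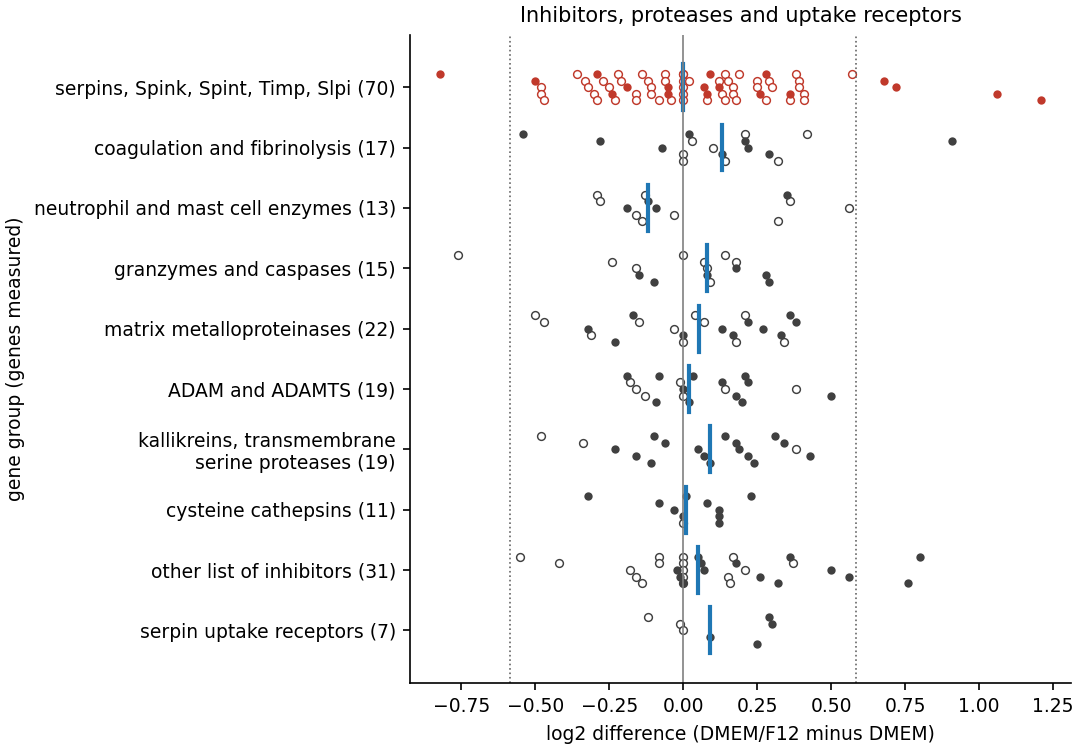
Each circle is the log2 difference (DMEM/F12 minus DMEM) of 1 measured gene, with the 70 inhibitor genes in red and the 9 lists in grey. Filled circles are genes above background on at least 1 array, open circles are not, blue bars are medians over all measured genes of a group and dotted lines mark 1.5-fold. Most genes of each list lie between the dotted lines. Plau, Cd109 and Cst7 lie to the right of them, and Gzmc, which was not above background, lies to the left.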

How the data were processed

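The authors hybridized RNA of BV2 cells to 2 Affymetrix Mouse Gene 1.0 ST arrays, 1 per medium, and deposited log2 expression values with 2 decimals for 28944 transcript clusters. The methods and the submitters' processing notes name Affymetrix Expression Console and Transcriptome Analysis Console. Their versions, how probes were summarized and normalized, and the build were not given in the sources used here. Labels assigned the arrays to the media. Clusters with exactly 1 symbol in the platform annotation (21789) were used without further scaling. Members and gene lists were chosen with earlier results of these data known. Every member above background on at least 1 array could be named, with both values. In the lists, genes 1.5-fold apart, or otherwise the 2 widest differences above background, and the proteases that the members inhibit were named. The sizes used were 2-fold and 1.5-fold. With 1 array per medium, no p-value was calculated, and the number of arrays limits the precision. Alternatives were median, quantile and loess (span 0.3) centring, other background levels, only clusters above background, raising values to background, the brightest cluster and clusters with several symbols. Promoter windows were found for 52 of the 70 members, and the 7 motifs were chosen after the differences were known. Protein sequences were not used here. Python 3.11.15 with numpy 2.4.6, pandas 2.3.3, statsmodels 0.14.6 and matplotlib 3.10.9 was used, and the steps were tested on simulated data.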

Additional observations from a re-analysis of the deposited data

How the results depend on the processing

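No paired analysis was possible because only 1 array was made per medium, and for the same reason no array could be left out. The numbers of inhibitor genes at least 2-fold higher (2), 2-fold lower (0), 1.5-fold higher (4) and 1.5-fold lower (1) were equal under every alternative run for them. Values were raised only to the 95th percentile level, 4.15 in DMEM. Serpinb1a, at 4.16 in DMEM, lay just above that level, so raising could not change its difference. The counts over all genes differed more. When dim values were set to the background level, 8 genes were 2-fold higher and 1 lower (12 and 5 as deposited), and 81 were 1.5-fold higher and 70 lower (185 and 145). With only clusters above background, 8 and 4 of 13225 genes were 2-fold and 105 and 86 were 1.5-fold higher and lower. Centring moved no class median by 0.1 or more on the log2 scale. With background at the 99th percentile of the receptor clusters, 11 of the 70 genes were above it, against 18, and 22 at the 90th. All 5 genes that were 1.5-fold apart were above each of these levels on at least 1 array. At the 99th percentile, Serpinb1a was above the level only in DMEM/F12 (5.22, level 4.94). Its value in DMEM (4.16) was below the level there (4.90). With only clusters above background, the median was 0.58 for Spink genes, -0.05 for Timp genes, 0.36 for clade A serpins and 0.18 for clade B serpins, each over fewer genes. With values below background raised to it, the median was 0.02 for clade A serpins, 0.02 for Timp genes and 0.02 for the other serpins. This is the gap between the background levels of the 2 arrays, and any gene below both takes that value. Raising also narrowed Serpina11 (0.18), Spint2 (0.15) and Serpind1 (-0.10). The median moved for the lists of coagulation (0.02 against 0.13) and of neutrophil and mast cell enzymes (0.02 against -0.12) with raised values. With only clusters above background it moved for matrix metalloproteinases (0.17), the other list of inhibitors (0.22) and the serpin uptake receptors (0.27). The single granzyme that was 1.5-fold lower, Gzmc, was not counted under either of these settings.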
